A study of Mus musculus with 9 samples.

Results

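The genes described here encode the machinery that copies DNA and the regulators that commit a cell to copying it. They were chosen by name, 44 genes of 18161 with a probe set on the array, from the parts of the replication fork, the enzymes that make its building blocks, and the cyclins and E2F factors of the G1/S step. All 44 had at least 1 probe set whose annotation names that gene alone, 101 probe sets together, and all 44 passed the filter on low signal, as did 13288 genes in all. Where a gene had several probe sets, the brightest on average over the 9 arrays stood for it. Levels are log2 signal, so that a difference of 1 is a 2-fold change, and the level of 1 probe set cannot be set against that of another.

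The series concerns T cell acute lymphoblastic leukemia (T-ALL), a cancer of T cell precursors, and the effects of excess NOTCH1 that stop short of malignancy. It holds 3 groups of 3 Affymetrix arrays, labelled NIC Tumor, Abnormal non-malignant and Control, each array made from RNA of sorted mouse cells. No genotype, strain, age, transgene promoter or treatment is given in the labels for any group, NIC is not written out, and the sorted cell type is not stated, so there is no labelled cell type to check against markers. Nor is it stated that the arrays of a group stem from different mice, and the p-values therefore measure only the spread between these arrays, which may be technical. The number of arrays limits the precision.

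Replication starts where the origin recognition complex (ORC) sits on DNA and, with CDC6 and CDT1, loads the ring-shaped MCM2-7 helicase. At the G1/S step cyclin E and the DBF4-CDC7 kinase fire these origins, and CDC45, GINS and MCM10 turn the loaded ring into a running fork. Primase and the polymerases alpha, delta and epsilon then make the new strands on the sliding clamp PCNA. Most of these genes are textbook targets of E2F factors, which the RB protein holds back until a cell commits to divide. In the thymus, T cell precursors divide rapidly after they first assemble a T cell receptor beta chain and then come to rest as small cells that carry both CD4 and CD8.

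The letters of an E2F motif, TTTNNCGC on either strand, were looked for in RefSeq promoter windows (build GRCm38.p6) that run from 250 bases before to 50 bases after each gene start. Of the 44 genes 37 had a window, and 15 of these, or 40.5%, held the motif, against 5.93% of 27025 genes with a window. The 15 were Orc1, Cdc6, Cdt1, Mcm3, Mcm5, Mcm6, Mcm7, Pola1, Pold1, Pole2, Rfc3, Lig1, Tyms, E2f2 and Uhrf1. A site each is shown for the 4 with the smallest adjusted p in NIC Tumor against Control. Of these, Mcm3 and Pole2 passed as higher there, E2f2 passed as lower and Tyms did not pass. The sites share the fixed letters because the search required them, and differ at the positions marked N. The motif is in capitals and each site is read 5′ to 3′ on the gene's own strand. The first base of the printed motif lay 20 bases past the start of Mcm3, 5 past that of E2f2, 11 past that of Pole2 and 42 past that of Tyms. Mcm3 and E2f2 hold a second match, which is not printed and begins at base 39 in Mcm3 and 40 in E2f2.
Mcm3 site (chr1:20820275-20820304, minus strand): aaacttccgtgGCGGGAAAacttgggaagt
Pole2 site (chr12:69228162-69228191, minus strand): cgtcggcggtgGCGCCAAAtcgcgaacatg
E2f2 site (chr4:136172267-136172296, plus strand): gaggcgcggcaTTTTCCGCgggagatccga
Tyms site (chr5:30073576-30073595, minus strand): aaggtcctggtTTTGTCGCt

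The same windows held the CCAAT box, CCAAT on either strand, in 23 of the 37 genes, or 62.2%, against 41.1% of all genes. They held the E-box CACGTG, the site bound by MYC and its relatives, in 6 genes, or 16.2%, against 8.09%. The 250 bases before the starts of Mcm3 and E2f2 are printed because these 2 genes moved most strongly in opposite directions among those with the E2F motif, and CCAAT boxes on either strand are in capitals. A match of letters is a description of the window and does not show that a factor binds there.
Mcm3 promoter (chr1:20820313-20820562, minus strand): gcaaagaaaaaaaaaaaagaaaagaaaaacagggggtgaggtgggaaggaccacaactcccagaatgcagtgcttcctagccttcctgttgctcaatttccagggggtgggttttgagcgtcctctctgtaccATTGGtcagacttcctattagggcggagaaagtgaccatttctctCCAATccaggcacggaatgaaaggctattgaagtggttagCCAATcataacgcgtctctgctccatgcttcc
E2f2 promoter (chr4:136172024-136172273, plus strand): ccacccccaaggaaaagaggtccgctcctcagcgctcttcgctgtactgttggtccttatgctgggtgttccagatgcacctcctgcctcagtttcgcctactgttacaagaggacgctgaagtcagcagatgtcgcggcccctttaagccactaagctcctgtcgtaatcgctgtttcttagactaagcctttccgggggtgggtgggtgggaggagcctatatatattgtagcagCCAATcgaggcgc

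Control 2 stood apart from the other controls on these genes. It was the lowest control for 40 of the 44 genes, or 90.9%, and for 34.2% of all genes tested, and the lowest of all 9 arrays for 21 of the 44. Relative to the control mean, the median of the 44 genes was 0.08, −0.31 and 0.24 on Control 1, 2 and 3. Control 2 was also the lowest control for 17 of 18 genes of G2/M and mitosis. It was the only array with signal of the Y-linked gene Eif2s3y (8.69, at most 4.18 elsewhere). The X-linked gene Xist was lowest there (10.27, against 12.38 to 13.3 elsewhere), so the sex of the cells may differ within the control group. Whether this bears on the replication genes was not tested. Abnormal non-malignant 2 and 3 were the closest pair of arrays, their genes differing with an SD of 0.16, against 0.3 for the next pair. NIC Tumor 1 lay nearer to the Abnormal non-malignant arrays (0.46 to 0.47) than to NIC Tumor 2 and 3 (0.63 and 0.79). Results that rest on these arrays are given below without them.

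**Figure D1:**
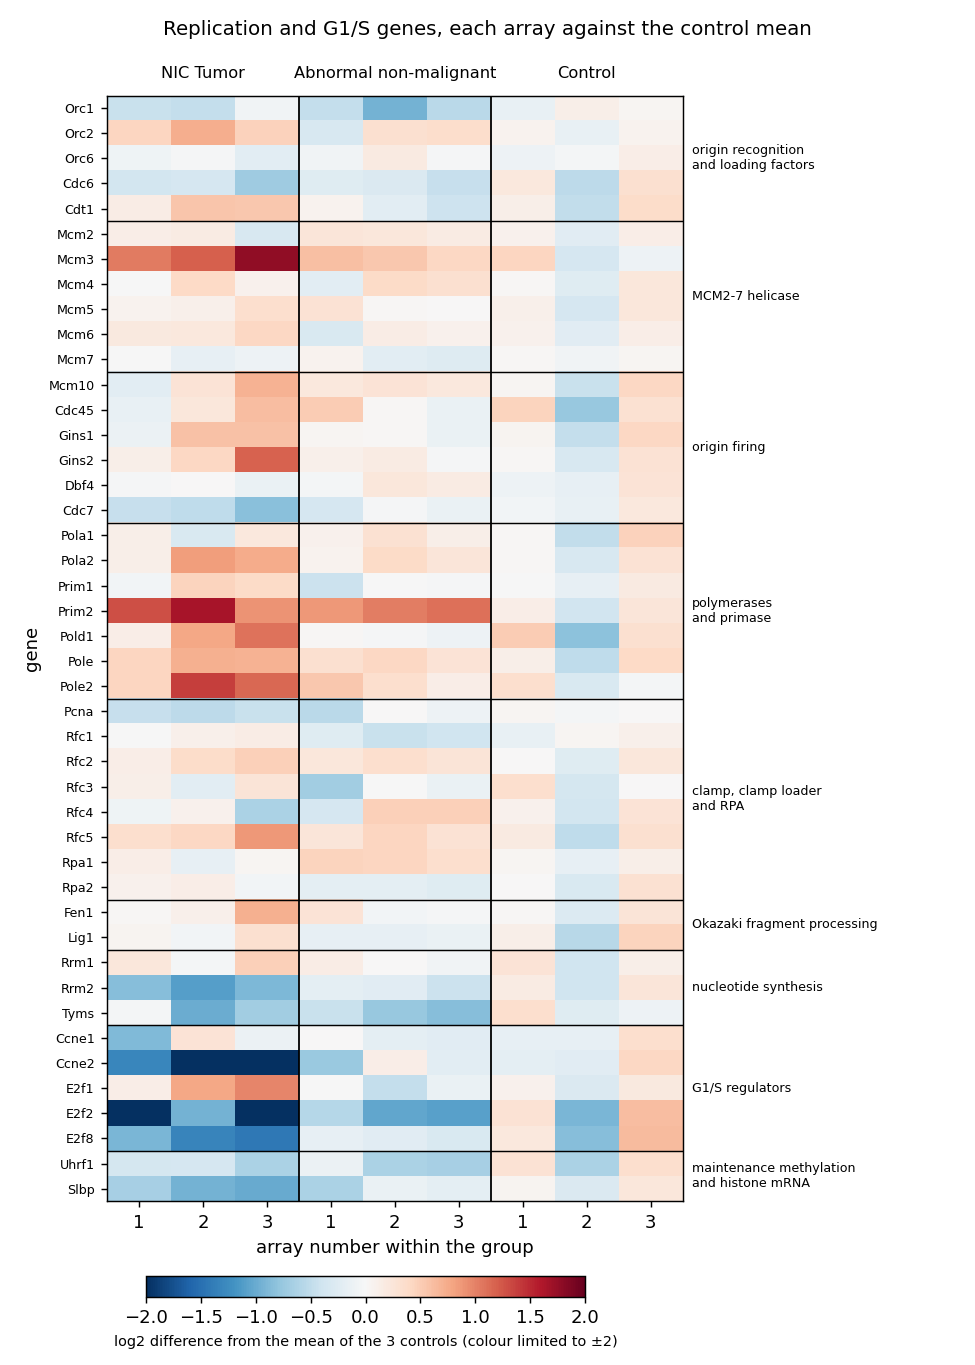
Log2 difference of each of the 44 genes (rows, grouped by role) from the mean of the 3 controls, on each of the 9 arrays (columns, by group); red is higher and blue lower, with the colour limited to ±2. Mcm3 and Prim2 are red on all 3 NIC Tumor arrays, E2f2, E2f8, Rrm2 and Slbp are blue there, and Control 2 is blue in most rows.

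NIC Tumor against Control asks how the tumors differ from the control cells. At a Benjamini-Hochberg adjusted p under 0.05 by limma, 3 of the 44 passed as higher (Mcm3, Prim2 and Pole2, a helicase subunit, a primase subunit and a polymerase subunit). As lower, 6 passed (Ccne2, E2f2, E2f8, Rrm2, Slbp and Pcna). Among all genes tested, too, some passed as higher and others as lower. The higher genes are 6.82% of the 44, against 8.49% of all 13288 genes tested, and the lower ones 13.6%, against 7.19%. All 3 tumors lay above all 3 controls for 7 genes, or 15.9%, against 18.2% of all genes, and below them for 7 genes, or 15.9%, against 14.3%. The median log2 fold change of the 44 genes was 0.09, against 0.06 for all genes. Of the 44 log2 fold changes 27 were positive. For genes that differ in either direction, bulk RNA cannot tell apart the share of cells in S phase, the mix of cell types and the RNA per cell. None of these was tested.

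Cyclin E2 (Ccne2), which activates CDK2 at the G1/S step, showed the largest change of the 44 genes. Its level was 5.91, 4.66 and 3.66 in the tumors, against 7.03, 7.0 and 7.63 in controls. All 3 tumors lay below all 3 controls, and the tumors also differed most among themselves for this gene (SD 1.12). The log2 fold change was −2.48 ± 0.48 (SE; adjusted p = 0.0105, limma). NIC Tumor 2 and 3 lay under the 40th percentile of their arrays, the level of the filter on low signal. With values under that percentile set to it, the fold change was −1.74 (adjusted p = 0.00467). The related cyclin Ccne1 averaged 8.52 ± 0.59 in tumors and 8.76 ± 0.30 in controls (SD, n = 3 each), and did not pass.

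Of the E2F factors, E2f2 and E2f8 passed as lower and E2f1 did not pass. E2f2, an activating E2F, had 9.22, 10.40 and 8.60 in tumors, against 11.64, 10.44 and 11.97 in controls. The groups did not overlap, but NIC Tumor 2 and Control 2 were within 0.1 of each other. The log2 fold change was −1.94 ± 0.48 (adjusted p = 0.0256, limma), and its other probe set differed by −2.38. E2f2 passed under 16 of the 22 alternative settings, but not with only the 2 groups compared or with a weight for each group's spread. E2f8, an atypical E2F that represses E2F targets, had 8.79, 8.38 and 8.27 in tumors, against 9.91, 8.85 and 10.34 in controls, with Control 2 just above the highest tumor. Its log2 fold change was −1.22 ± 0.33 (adjusted p = 0.0364, limma), but its second probe set differed by 0.59 the other way and the mean of both gave −0.31 (adjusted p = 0.495). E2f1, another activator, averaged 8.27 ± 0.44 in tumors and 7.64 ± 0.25 in controls (SD, n = 3 each), and the difference of 0.63 ± 0.25 (SE) did not pass (adjusted p = 0.113, limma).

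Of the 3 genes of nucleotide synthesis, Rrm2 alone passed. Rrm2, the small subunit of ribonucleotide reductase, which makes deoxynucleotides and is produced mainly in S phase, had 11.32, 11.07 and 11.27 in tumors, against 12.33, 11.78 and 12.41 in controls. All tumors lay below all controls, and the log2 fold change was −0.96 ± 0.17 (adjusted p = 0.00835, limma). Its 3 probe sets differed by −1.27 to −0.79, and it passed under all 22 alternative settings. Rrm1, the large subunit of the same enzyme, differed by 0.22 and did not pass. Tyms, thymidylate synthase, had 5.73, 4.78 and 5.07 in tumors, against 6.11, 5.53 and 5.67 in controls. NIC Tumor 1 lay within the range of the controls, and the difference of −0.58 did not pass.

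Slbp, which binds the stem-loop of histone mRNAs and is needed for histone supply in S phase, had 10.48, 10.19 and 10.13 in tumors, against 11.19, 10.85 and 11.37 in controls. The groups did not overlap, and the log2 fold change was −0.87 ± 0.20 (adjusted p = 0.0182, limma). With the mean of all its probe sets, 1 of which lay under the 40th percentile on every array, it was −0.51 and did not pass (adjusted p = 0.0608), nor did it with a weight for each group's spread (adjusted p = 0.0737). Pcna, the sliding clamp, had 12.72, 12.65 and 12.73 in tumors, against 13.22, 13.13 and 13.18 in controls. Both groups were tight and apart, by −0.48 ± 0.13 (adjusted p = 0.0391, limma). Pcna passed under only 10 of the 22 alternative settings. It did not pass without a filter, without a variance trend or with the replicate number as a block. Nor did it with Abnormal non-malignant 2 and 3 averaged or with a weight for each group's spread. Uhrf1, which guides maintenance methylation to new DNA, averaged 10.64 ± 0.17 in tumors and 11.08 ± 0.54 in controls (SD, n = 3 each) and did not pass.

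The genes that passed as higher belong to the helicase, primase and polymerase epsilon. Mcm3 had 10.89, 11.04 and 11.61 in tumors, against 10.28, 9.51 and 9.74 in controls. All tumors lay above all controls, by 1.33 ± 0.24 (adjusted p = 0.00822, limma). The other 4 probe sets of Mcm3 differed by 0.02 to 0.55, and with the mean of all its probe sets the fold change was 0.49 and did not pass (adjusted p = 0.0978). No other subunit of the ring of 6 MCM2-7 proteins passed: their log2 fold changes ran from −0.09 (Mcm7) to 0.28 (Mcm6). These values depend on the probe set: other probe sets of these subunits above the filter differed by −0.19 (Mcm4) to 0.37 (Mcm2, Mcm5 and Mcm7). Those of Mcm7 were all positive (0.15, 0.31 and 0.37).

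Prim2, the large primase subunit, which helps make the RNA primers, had 10.26, 10.63 and 9.88 in tumors, against 9.11, 8.60 and 9.22 in controls. The groups were well apart, the log2 fold change was 1.28 ± 0.23 (adjusted p = 0.00836, limma), and the gene passed under all 22 alternative settings (1.09 to 1.47). Pole2, the second subunit of the leading-strand polymerase epsilon, had 7.98, 8.94 and 8.70 in tumors, against 7.90, 7.25 and 7.52 in controls. NIC Tumor 1 barely exceeded the highest control, and the log2 fold change was 0.98 ± 0.27 (adjusted p = 0.0368, limma). With the mean of its 2 probe sets, the other of which lay under the 40th percentile on every array, it was 0.48 (adjusted p = 0.077), and it also did not pass with Abnormal non-malignant 2 and 3 averaged (adjusted p = 0.0603), with the replicate number as a block (adjusted p = 0.0663) or with a weight for each group's spread (adjusted p = 0.0733, all by limma). The 7 polymerase and primase genes had a median log2 fold change of 0.61, against 0.06 for all genes. The 2 that passed were both higher, 28.6% of the 7, against 8.49% of all genes. Pold1, the catalytic subunit of polymerase delta, differed by 0.66 ± 0.35 (adjusted p = 0.22, limma), and Pole, that of polymerase epsilon, by 0.61 ± 0.23 (adjusted p = 0.101, limma), neither of which passed.

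**Figure D2:**
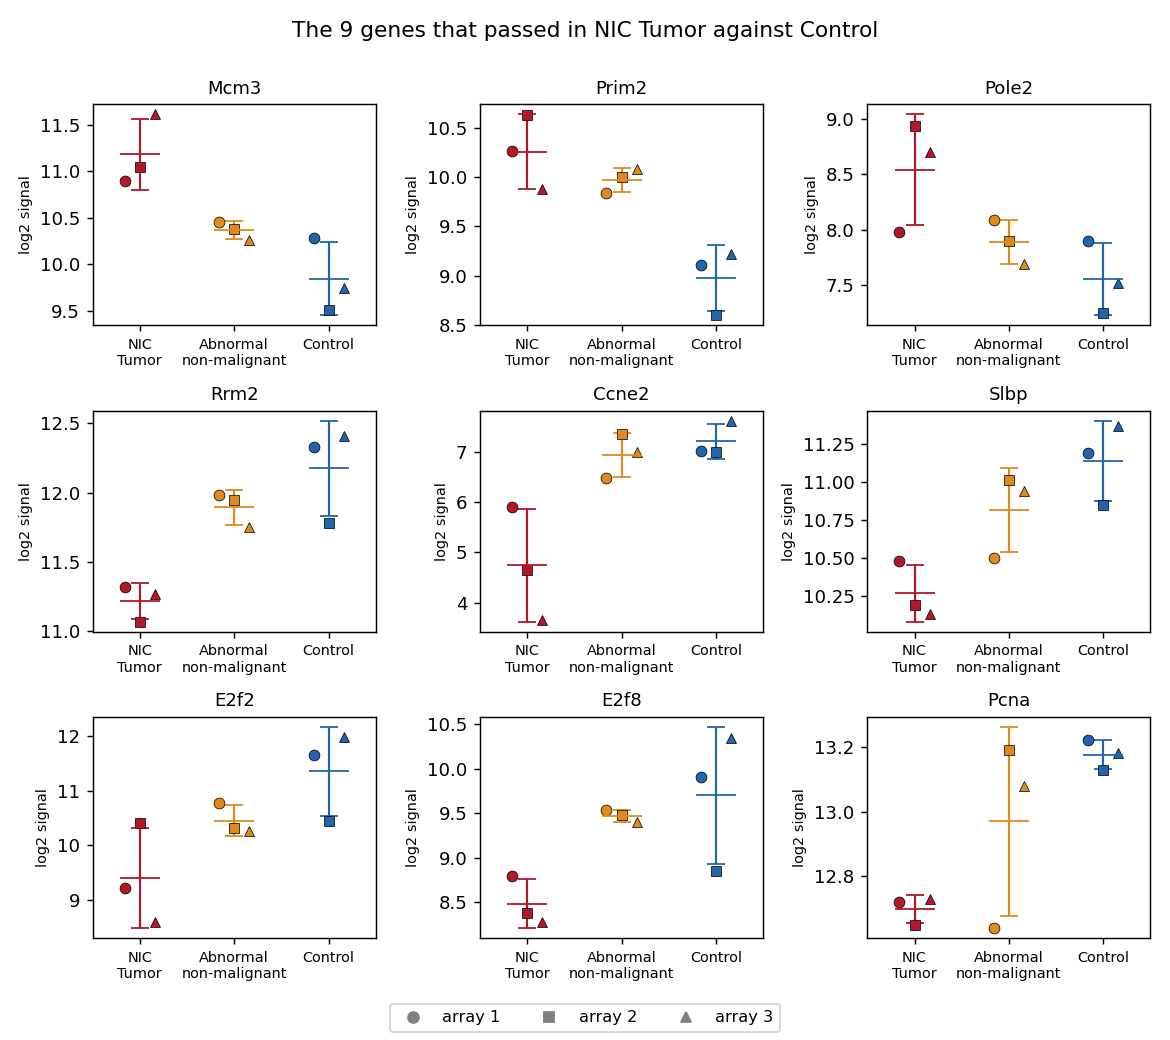
Log2 signal of the 9 genes that passed in NIC Tumor against Control, on each array; points are arrays, the wide line is the group mean and the bars are ± 1 SD (n = 3), and each panel has its own axis, which does not start at 0. In Rrm2 and Slbp all 3 NIC Tumor arrays lie below all other arrays, and in Prim2 the Abnormal non-malignant arrays lie with the tumors, above the controls.

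By limma, none of the genes of origin licensing and firing passed (0 of 5 for recognition and loading, with 1 at an unadjusted p under 0.05, and 0 of 6 for firing, with 1). Among all genes tested 8.49% passed as higher, 7.19% passed as lower and 32.2% had an unadjusted p under 0.05. With so few genes per role, a count of 0 does not set these roles apart from all genes. Orc2, a subunit of ORC, had 8.45, 8.74 and 8.48 in tumors, against 8.09, 7.87 and 8.08 in controls. The groups did not overlap and its 3 probe sets differed by 0.49 to 0.55, but the adjusted p was 0.109 (limma); with the mean of its probe sets it passed (0.53, adjusted p = 0.0467). Cdc7, the kinase that fires origins, had 8.16, 8.11 and 7.78 in tumors, against 8.56, 8.47 and 8.82 in controls. It lay lower on every tumor array and just missed the threshold (−0.60, adjusted p = 0.0507, limma). Its second probe set differed by 0.13 the other way, and the mean of both gave −0.24 (adjusted p = 0.407). Its partner Dbf4 differed by −0.06, Cdc6 by −0.47 and Cdt1 by 0.41.

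Most of the remaining genes differed by less than the threshold allows to call. The median log2 fold change was 0.24 for the origin firing genes Mcm10, Cdc45, Gins1, Gins2, Dbf4 and Cdc7, with 0.57 for Gins2 the highest and −0.60 for Cdc7 the lowest. The clamp loader genes Rfc1 to Rfc5, which open and close PCNA, ran from −0.21 (Rfc4) to 0.54 (Rfc5). Rpa1 and Rpa2, which coat single-stranded DNA, differed by 0.00 and 0.05. Fen1, which trims Okazaki fragments, had 11.39, 11.47 and 12.08 in tumors, against 11.39, 11.09 and 11.63 in controls, and the groups overlapped. Lig1, the ligase that joins these fragments, differed by 0.11.

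**Figure D3:**
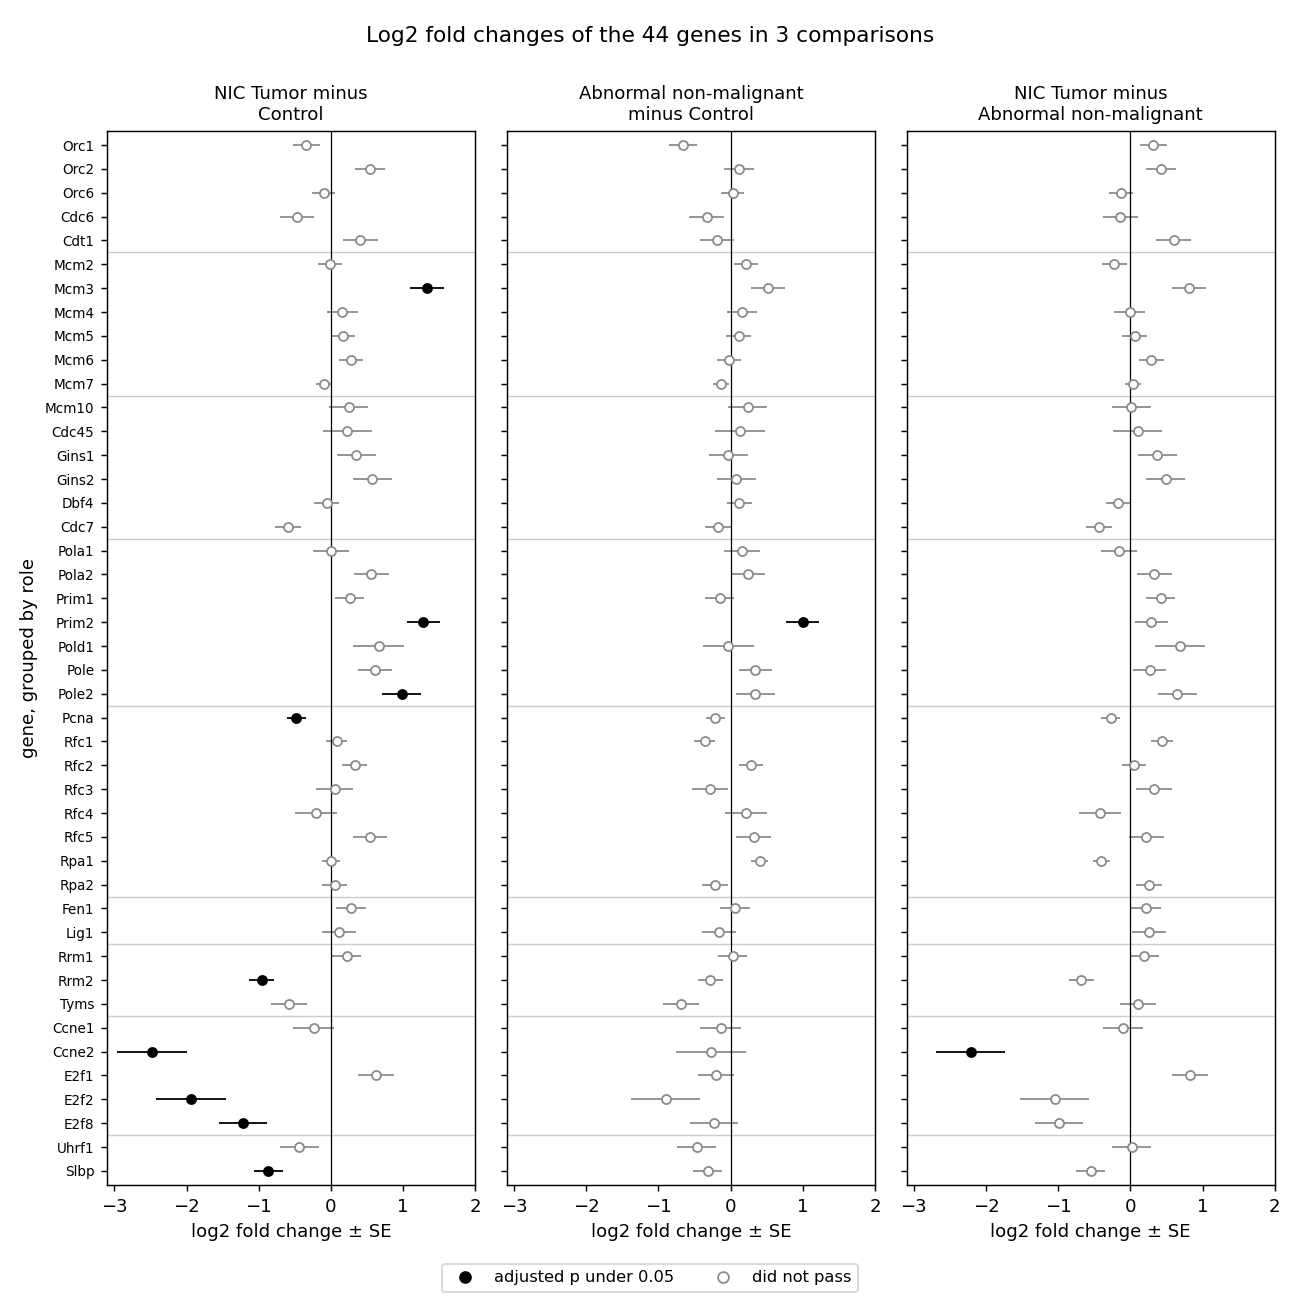
Log2 fold change ± SE of the 44 genes (rows, by role) in each comparison (panels); filled points passed at an adjusted p under 0.05 (limma). The left panel holds 9 filled points, 3 to the right of 0 and 6 to the left, the middle panel holds Prim2 alone and the right panel Ccne2 alone.

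Abnormal non-malignant against Control asks what differs where no malignancy is present. Only Prim2 passed, as higher: 9.84, 10 and 10.08 in the Abnormal non-malignant arrays, against 9.11, 8.60 and 9.22 in controls. The groups did not overlap, and the log2 fold change was 1.00 ± 0.23 (adjusted p = 0.0496, limma), just inside the threshold. It did not pass without any 1 of the 3 Abnormal non-malignant or the 3 Control arrays (0.81 to 1.12 over the 9 fits with 1 array left out). With the mean of its probe sets the fold change was 0.59 and did not pass (adjusted p = 0.128), and 1 of its probe sets differed by 0.00 between the groups. With 1 gene of 44 higher, the share is 2.27%, against 2.87% of all genes. By limma 0 of the 44 passed as lower, against 0.655% of all genes, and 5 of the 44, or 11.4%, had an unadjusted p under 0.05 in either direction, against 13.3% of all genes. The groups did not overlap for 4 genes as higher, or 9.09%, against 17% of all genes, and for 3 as lower, or 6.82%, against 9.16%. This comparison and that of the tumors share their control arrays.

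Among the genes that did not pass, Rpa1 had 12.42, 12.41 and 12.31 in Abnormal non-malignant arrays, against 12.02, 11.82 and 12.09 in controls. All 3 lay above the controls (0.40, adjusted p = 0.14, limma). Orc1, the ATPase subunit of ORC, had 7.22, 6.74 and 7.15, against 7.54, 7.80 and 7.73 in controls. All 3 lay below the controls, by −0.66 ± 0.19 (SE; adjusted p = 0.109, limma). Its other probe set differed by 0.17 the other way, and the mean of both gave −0.24 (adjusted p = 0.498). Tyms had 5.33, 5.01 and 4.92, against 6.11, 5.53 and 5.67 in controls, a difference of −0.69 ± 0.25 (adjusted p = 0.236, limma), in a range near the 40th percentile, which only 5 of the 9 arrays exceeded. E2f2 showed a difference of −0.90 ± 0.48 (adjusted p = 0.516, limma), with arrays that overlapped those of the controls.

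NIC Tumor against Abnormal non-malignant compares the malignant with the non-malignant state directly. Ccne2 alone passed, as lower: 5.91, 4.66 and 3.66 in tumors, against 6.48, 7.36 and 7.01 in Abnormal non-malignant arrays. The groups did not overlap, and the log2 fold change was −2.21 ± 0.48 (adjusted p = 0.0403, limma). With values under the 40th percentile set to it, the fold change was −1.47 (adjusted p = 0.0264). With 1 array left out it passed only without NIC Tumor 1 (−2.79), and ran from −2.79 to −1.67 over the 9 fits. The share of genes that passed as lower is 2.27%, against 2.7% of all genes, and by limma 0 passed as higher, against 1.53%. In this comparison 11 of the 44, or 25%, had an unadjusted p under 0.05, against 25.9% of all genes. All 3 tumors lay above all 3 Abnormal non-malignant arrays for 10 genes, or 22.7%, against 12.3% of all genes, and below them for 6, or 13.6%, against 14.8%.

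Several genes came near the threshold in this comparison without passing. Rrm2 (−0.68, adjusted p = 0.059) and Mcm3 (0.81, adjusted p = 0.0856) lay apart from the Abnormal non-malignant arrays on all 3 tumors, without passing by limma. E2f1 lay above all 3 Abnormal non-malignant arrays in all 3 tumors, by 0.83 ± 0.25 (adjusted p = 0.0859, limma). Rpa1 lay below them in all 3 tumors, by −0.40 (adjusted p = 0.0916), while its difference from controls was 0.00. Rfc1 differed by 0.44 (adjusted p = 0.121), against 0.08 relative to controls. E2f8 differed by −0.99 ± 0.33 (adjusted p = 0.114) and E2f2 by −1.05 ± 0.48 (adjusted p = 0.204), neither of which passed by limma. For Prim2 the tumors differed from the Abnormal non-malignant arrays by 0.29, with overlapping groups. Over the 44 genes the order of the group means from low to high was Control, Abnormal non-malignant, NIC Tumor for 14, Abnormal non-malignant, Control, NIC Tumor for 10, and NIC Tumor, Abnormal non-malignant, Control for 9. The other 11 were spread over the remaining orders. The orders were not counted over all genes tested, so they cannot be called particular to the 44. These orders rest on means alone: against the Abnormal non-malignant arrays 1 gene passed in NIC Tumor (Ccne2), and 1 between them and Control (Prim2), so most neighbours in the order were not told apart by the test.

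Many of these calls did not hold in every fit with 1 array left out. Some were also lost without an Abnormal non-malignant array, which is in neither group of NIC Tumor against Control. Each such fit has fewer arrays to estimate the spread from, so a lost call does not show that it rested on that array. In NIC Tumor against Control, Mcm3 (1.12 to 1.55), Prim2, Rrm2 (−1.15 to −0.84) and Ccne2 (−3.06 to −1.94) passed in all 9 fits with 1 array left out. E2f2 did not pass without Control 1, Control 3 or NIC Tumor 3 (−2.44 to −1.54), nor Slbp without Control 1, Control 3 or NIC Tumor 2 (−1.02 to −0.76). Pcna passed only without NIC Tumor 1 or without Abnormal non-malignant 1 or 2 (−0.50 to −0.46). Pole2 passed only without NIC Tumor 1 or Control 1 (0.79 to 1.26), and E2f8 only without NIC Tumor 1 or Control 2 (−1.64 to −0.90).

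Without Control 2, 2 of the 44 passed as higher in NIC Tumor against Control (Mcm3, 1.16, and Prim2, 1.09) and 5 as lower, with Ccne2 at −2.59, E2f2 at −2.40, E2f8 at −1.64, Rrm2 at −1.15 and Slbp at −1.02. The higher ones were 4.55% of the 44, against 4.02% of all genes tested in that fit, and the lower ones 11.4%, against 2.95%. The median of the 44 then turned to −0.09. In Abnormal non-malignant against Control the median was −0.20 without Control 2, against −0.02 with it. Without NIC Tumor 1, more genes passed in NIC Tumor against Control, 6 as higher (E2f1, Gins2, Mcm3, Pola2, Pole2 and Prim2) and 8 as lower (Ccne2, Cdc7, E2f2, E2f8, Pcna, Rrm2, Slbp and Tyms). These 14 are 31.8% of the 44, against 31.1% of all genes tested in that fit. Without it 3 passed as higher than in Abnormal non-malignant arrays (E2f1, 1.08, Mcm3, 0.96, and Pole2, 0.93) and 4 as lower (Ccne2, Rpa1, Rrm2 and Slbp), together 15.9% of the 44, against 25.7% of all genes. With Abnormal non-malignant 2 and 3 averaged and counted as 1 array, 2 were higher and 4 lower in NIC Tumor against Control by limma. Together these are 13.6% of the 44, against 11.1% of all genes. In that fit 0 of the 44 passed in Abnormal non-malignant against Control, against 1.56% of all genes. In NIC Tumor against Abnormal non-malignant 0 passed by limma, against 0.499%.

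**Figure D4:**
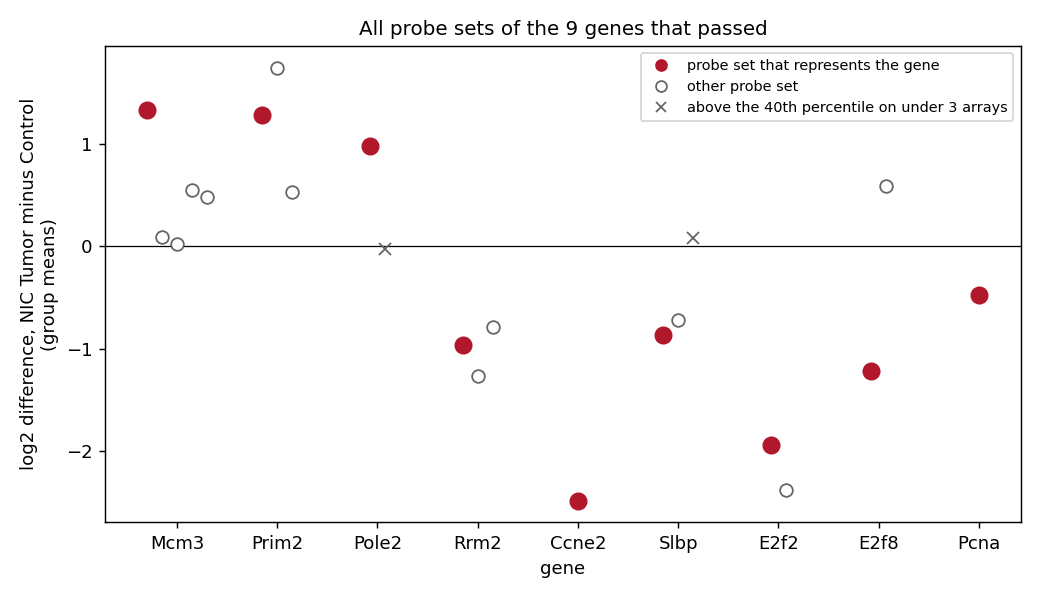
Log2 difference, NIC Tumor minus Control (group means), of every probe set of the 9 genes that passed; the filled point is the probe set that represents the gene, open points are its other probe sets and crosses are probe sets above the 40th percentile on fewer than 3 arrays. The probe sets of Prim2, Rrm2 and E2f2 lie on 1 side of 0, those of Mcm3 spread from 0.02 to 1.33, and those of E2f8 lie on both sides.

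Of the 44 genes 33 had several probe sets above the filter, and in 21 of these all of them had the sign of the representing one in NIC Tumor against Control. The same share over all genes was not counted. Ccne2 and Pcna had a probe set each, so that no second measurement exists for them here. The sites that the probe sets hybridize to within a transcript were not used here. By promoter letters, the 15 genes with the E2F motif had 2 that passed as higher (Mcm3 and Pole2) and 1 as lower (E2f2), with a median of 0.05. The 22 genes with a window but without these letters had 0 higher and 4 lower (E2f8, Pcna, Rrm2 and Slbp), with a median of 0.02. Of all genes tested 8.49% passed as higher and 7.19% as lower in this comparison. The counts by motif are small, and a difference between the 2 sets was not tested. Ccne2 and Prim2 were among the 7 genes without a window in the table.

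Genes beside these 44 in the same pathways were described from lists of their own, to be read against the 8.49% of all genes that passed as higher and the 7.19% that passed as lower in NIC Tumor against Control. Among 32 other replisome and origin genes, 3 passed as higher (9.38%) and 1 as lower (3.12%) in NIC Tumor against Control. Rnaseh2a, which helps remove RNA from DNA, was higher by 1.27 ± 0.24 (adjusted p = 0.0102, limma), and Pole3, a small subunit of polymerase epsilon, by 0.62 ± 0.15 (adjusted p = 0.025, limma). Top2a, the topoisomerase that untangles copied chromosomes, was lower by −0.95 ± 0.14 (adjusted p = 0.00349, limma). Pole3 was also higher (0.83) and Top2a lower (−0.67) in tumors than in Abnormal non-malignant arrays, with adjusted p = 0.0251 and 0.0351 by limma.

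Among 15 other genes of nucleotide supply, 6 passed as higher (40%) and 1 as lower (6.67%) in NIC Tumor against Control, with a median of 0.64. Cad, which starts pyrimidine synthesis, averaged 9.91 ± 0.34 in tumors and 7.53 ± 0.73 in controls (SD, n = 3 each), a log2 fold change of 2.38 (adjusted p = 0.00247, limma). Atic and Gart, enzymes of purine synthesis, were higher by 1.29 ± 0.17 (adjusted p = 0.00185) and 1.71 ± 0.27 (adjusted p = 0.00454, limma). Atic was the only gene of this list to pass in Abnormal non-malignant against Control (0.79, adjusted p = 0.0325, limma). Cad (1.38), Gart (1.23) and Paics (0.55), another purine enzyme, also passed as higher in tumors than in Abnormal non-malignant arrays, with adjusted p = 0.0493, 0.0405 and 0.0371 by limma. Rrm2 had passed in the opposite direction to these genes.

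Of 20 other genes of the E2F and RB pathway 2 passed as lower (10%) and 0 as higher in NIC Tumor against Control by limma, and 11 (55%) had an unadjusted p under 0.05, against 32.2% of all genes. Rb1, which encodes the RB protein, averaged 8.23 ± 1.02 in tumors and 9.96 ± 0.33 in controls (SD, n = 3 each; adjusted p = 0.025, limma). Of 12 genes of replication-coupled chromatin 2 were lower (16.7%), the polycomb methyltransferase Ezh2 (−0.72) and Atad2 (−0.71). Of 18 G2/M and mitosis genes 6 were lower (33.3%) and 0 higher by limma (7 at an unadjusted p under 0.05), with Cenpe, a kinetochore motor, at −1.13 ± 0.21 (adjusted p = 0.00943) and the proliferation marker Mki67 at −0.93 ± 0.19 (adjusted p = 0.0132). The median of the G2/M list was −0.40, against 0.09 for the 44 genes of replication and G1/S. That list lay at −0.49 to −0.37 on the tumors, and at 0.20, −0.50 and 0.33 on Control 1, 2 and 3, so that Control 2 was lower than every tumor. In Abnormal non-malignant against Control 0 genes of these 3 lists and of the replisome list passed by limma, with 3 (E2F and RB), 0 (chromatin), 3 (G2/M) and 2 (replisome) at an unadjusted p under 0.05.

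**Figure D5:**
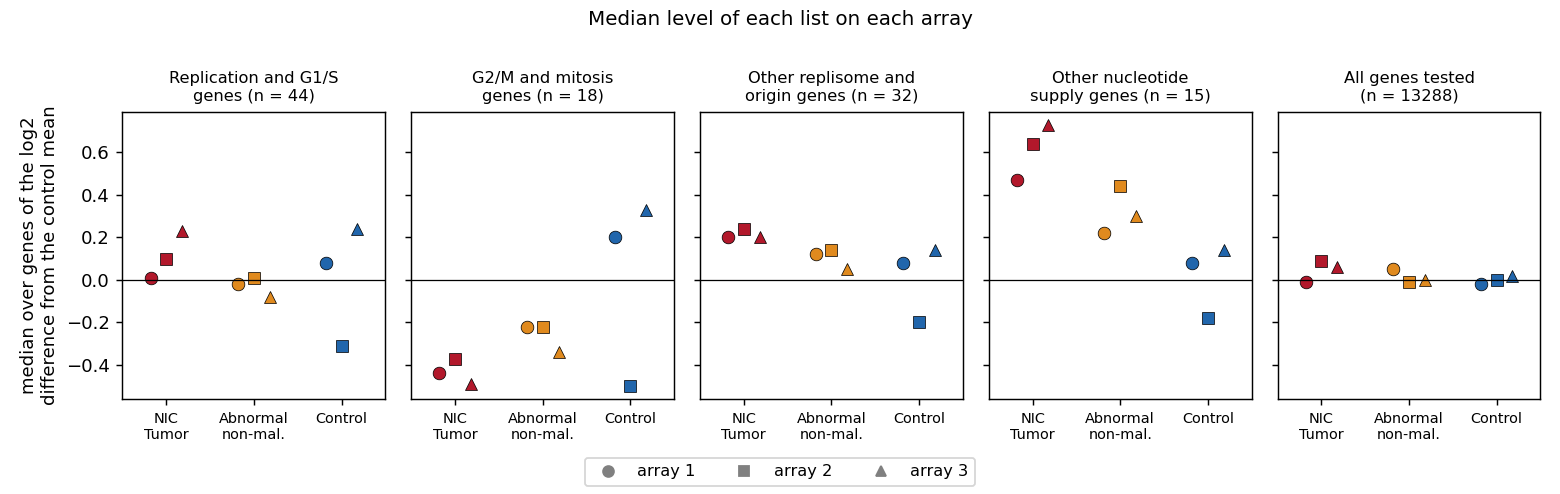
Median over the genes of a list of the log2 difference from the control mean, on each array, for the 44 genes, 3 other lists and all genes tested; points are arrays. The 44 genes overlap between all groups (−0.31 to 0.24 in controls), whereas the nucleotide supply list lies between 0.47 and 0.73 in NIC Tumor, above the other groups.

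The summed levels of some cell type markers differed between the groups, and those of others overlapped. The summed linear signal of 9 CD4+CD8+ thymocyte markers was 4319 to 20767 in tumors, 31311 to 32877 in Abnormal non-malignant arrays and 38526 to 54678 in controls. Of these 9, 6 passed as lower in NIC Tumor against Control (66.7%, against 7.19% of all genes). In Abnormal non-malignant against Control 0 of the 9 passed by limma, with log2 fold changes from −1.58 to 3.27. The sum of 9 T lineage markers was 24976 to 35848 in tumors, 40343 to 45518 in Abnormal non-malignant arrays and 42227 to 48467 in controls. Of these 9, 4 passed as lower in NIC Tumor against Control (44.4%, against 7.19% of all genes) and 0 as higher by limma. In Abnormal non-malignant against Control 2 passed as higher (22.2%, against 2.87%) and 0 as lower by limma. NK cell markers summed to 1540 to 8347 in tumors, 5557 to 9249 in Abnormal non-malignant arrays and 901 to 925 in controls. In NIC Tumor against Control 2 of the 6 NK genes tested passed as higher (33.3%, against 8.49% of all genes). In Abnormal non-malignant against Control 3 of the 6 did (50%, against 2.87%). The median log2 fold change of the 6 was 0.1 in the first of these comparisons and 0.55 in the other, so the sum does not stand for every gene of the list. Klra8 of that list was under the 40th percentile on every array. Myeloid markers summed to 834 to 2073 in tumors, 1351 to 1363 in Abnormal non-malignant arrays and 768 to 853 in controls. Erythroid markers summed to 453 to 1536 in tumors, 522 to 598 in Abnormal non-malignant arrays and 334 to 366 in controls, with Hba-a1 under the 40th percentile on every array. By limma 0 of 11 myeloid and 0 of 4 erythroid genes tested passed in any comparison, and the myeloid sums of tumors and controls overlapped. B cell markers summed to 511 to 752 in tumors and 607 to 797 in controls, and thymic stroma markers to 865 to 1309 in tumors and 771 to 949 in controls, so that both overlapped. Of the 8 B cell genes tested 2 passed as lower in NIC Tumor against Control (25%, against 7.19% of all genes). The part of these cell types in the differences of the 44 genes was not tested.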

How the data were processed

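RNA of sorted cells was labelled with biotin and hybridized to Affymetrix arrays, per the labels' protocols. The authors deposited normalized log2 signal for 45101 probe sets on each of 9 arrays; the background correction, summarization and normalization are not given in the sources used here, and that the scale is log2 follows from the range of the values (2.68 to 14.57). Array medians (5.67 to 5.77) differed by less than 0.3, so no scaling was added. Probe sets with exactly 1 gene symbol (34945, controls left out; 932 had several and 9160 none) were assigned to genes through the platform annotation and RefSeq, and the probe set with the highest mean represented each gene. A gene was tested if it lay above the array's 40th percentile on at least 3 arrays. All 9 arrays entered 1 linear model of the group means, in limma 3.58.1 under R 4.3.3 (moderated variance with a trend, residual degrees of freedom 6, prior 3.6), two-sided, with Benjamini-Hochberg adjustment over all 13288 genes and a threshold of 0.05; an exact permutation test of 3 against 3 arrays cannot give a p under 0.1. Python 3.11.15 and pandas 2.3.3 joined the tables.

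The 44 genes and all lists were chosen with earlier results of these data known. SE and adjusted p are given for genes that passed and for the 3 largest differences that did not, per comparison, and array values for the gene of each role with the smallest adjusted p. Array values of E2f2, E2f8 and Pole2, the means of Ccne1, E2f1 and Uhrf1, and the adjusted p of other genes near the threshold were added after the values were seen. Alternatives covered scaling, filter, probe set choice, variance model, arrays fitted, threshold, a floor on low values and each array left out.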

Additional observations from a re-analysis of the deposited data

How the results depend on the processing

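Of the 22 settings tried, 1, a weight for each group's spread, was chosen after seeing the data. None of the 44 genes that had passed changed direction under any of them. In NIC Tumor against Control the count of genes that passed as lower (6) was 1 at an adjusted p under 0.01 and 2 with a weight for each group's spread, and all genes called (2084) numbered 842 with only the 2 groups compared, 584 at an adjusted p under 0.01 and 1341 with the weights. In Abnormal non-malignant against Control the 1 higher gene became 0 under median scaling, no filter, the mean of all probe sets, the averaging of Abnormal non-malignant 2 and 3 or an adjusted p under 0.01, and 2 with the weights; the lower genes (0) numbered 1 with only the 2 groups compared and 2 with the weights. The median of the 44 genes in this comparison moved to 0.02 under median scaling and with the mean of all probe sets. All genes called there (469) numbered 1121 with only the 2 groups compared, 206 with the averaged arrays, 233 at an adjusted p under 0.01 and 1286 with the weights. In NIC Tumor against Abnormal non-malignant the 1 lower gene became 0 without a filter, with only the 2 groups compared, with the averaged arrays or at an adjusted p under 0.01, and 2 with a filter at the 60th percentile. All genes called there (562) numbered 110 with only the 2 groups compared, 66 with the averaged arrays, 83 at an adjusted p under 0.01 and 283 with the weights. The cause was not tested beyond what fewer arrays, fewer probe sets or a stricter threshold remove by construction.

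With 1 array left out, the genes that passed as higher ranged from 2 to 6 and as lower from 2 to 8 in NIC Tumor against Control, with a median of −0.09 to 0.25 and 922 to 4117 called among all genes. In Abnormal non-malignant against Control they ranged from 0 to 1 and 0 to 0, with a median of −0.20 to 0.10 and 203 to 709 called. In NIC Tumor against Abnormal non-malignant they ranged from 0 to 3 and 0 to 4, with a median of 0.05 to 0.23 and 57 to 3407 called.

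The labels number the arrays 1 to 3 in each group without saying that a number links them, and the deviations of same-numbered arrays from their group means correlated at −0.05 to 0.22, so the numbers were not taken as pairs. With the replicate number as a block, 2 of the 44 genes were higher and 6 lower in NIC Tumor against Control (Pole2 did not pass, and Tyms passed in place of Pcna), 0 passed in Abnormal non-malignant against Control and 0 in NIC Tumor against Abnormal non-malignant, and 1916, 399 and 287 of all genes were called. Arrays give no depth, and signal near the 40th percentile, as for Ccne2 and Tyms, limits how far low levels can be told apart.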

Other observations

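The 44 genes differed in how much they varied within a group. The root mean square SD over the 44 was 0.37 in NIC Tumor, 0.21 in Abnormal non-malignant and 0.38 in Control arrays, against 0.49, 0.23 and 0.27 over all genes tested. The largest SD within a group was 1.12 for Ccne2 in tumors, 0.46 for Rfc4 in Abnormal non-malignant arrays and 0.81 for E2f2 in controls. Pcna had the smallest SD both in tumors (0.04) and in controls (0.05), and Lig1 in Abnormal non-malignant arrays (0.02).

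The tumors did not resemble each other in every role. The 7 polymerase and primase genes had medians of 0.14, 0.77 and 0.75 relative to the control mean on NIC Tumor 1, 2 and 3, and the 3 nucleotide synthesis genes −0.05, −0.99 and −0.70. The origin firing genes lay at −0.14, 0.25 and 0.60, and the G1/S regulators at −0.91, −0.95 and −1.43. Among polymerases and primase and in nucleotide synthesis NIC Tumor 1 was nearer to the control mean than the other tumors. Myc, a transcription factor that drives growth and is a known target of NOTCH1 in T-ALL, had 8.81, 9.72 and 9.93 on these tumors, 8.34, 8.27 and 8.10 in Abnormal non-malignant arrays and 7.43, 6.90 and 7.12 in controls. Notch1 had 12.92, 9.0 and 10.81 in tumors, 12.88, 12.97 and 12.87 in Abnormal non-malignant arrays and 9.81, 10 and 10.34 in controls, so that NIC Tumor 1 lay with the Abnormal non-malignant arrays. Myc and Notch1 were looked up after the values of the 44 genes were seen.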
